A study of Mus musculus with 2 samples.

Results

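The genes described are the 4 annotated mouse miR-219 genes, Mir219a-1, Mir219a-2, Mir219b and Mir219c, and the single miR-338 gene, Mir338. They were chosen by symbol, as every entry of the count tables whose identifier belongs to Mir338 or to a symbol beginning with Mir219, and they make up 5 of the 2202 miRNA genes measured. The libraries came from left cerebral cortex tissue of 2 female B6CASTF1/J mice aged 2 months, a first-generation hybrid strain, with no treatment and no engineered allele named. Each animal gave 1 microRNA-seq library, made from total RNA and limited to RNA shorter than 30 nucleotides. The labels number the animals separately but give them the same donor identifier, and they form a single group with no contrast. The values below therefore compare 2 libraries, in which the animal and the library preparation cannot be told apart.

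A miRNA is cut from a hairpin precursor, and 1 or both arms of the hairpin can become the mature strand, which finds messenger RNAs mainly through its seed, bases 2 to 8. In the mouse central nervous system miR-219 and miR-338 increase as oligodendrocyte precursors mature into myelinating cells. Together they repress messages that keep precursors dividing and undifferentiated, among them those of the growth factor receptor Pdgfra and the transcription factor Sox6, and loss of miR-219 in mice impairs myelination. The tables hold miRNA genes only, with no myelin messages, so the oligodendrocyte name rests on this background and could not be checked against independent markers of the cell type. In bulk tissue, fewer cells of a type and less RNA per cell cannot be told apart.

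The library of animal 1 held 13533476 reads and 4415759 miRNA gene counts, and that of animal 2 held 10143234 reads and 2279562 gene counts. The unmapped share differed, with 23.4% for animal 1 and 47.1% for animal 2. The tables list reads that mapped to several places in an entry of their own, 48.9% and 48.2% of mapped reads, which was not added to any gene. Whether some of these reads were also counted at a gene is not stated, so counts of genes with near-identical copies are uncertain. Levels are in CPM, a gene's count scaled to 1000000 gene counts, without length scaling because the reads are of miRNA length whatever the length of the hairpin. A count of 0 allows up to 3 counts, or 0.679 CPM in the deeper library of animal 1 and 1.32 CPM in that of animal 2. Intervals are exact Clopper-Pearson 95% intervals, and they cover the counting error of reads only. Without molecular identifiers PCR copies of a molecule are counted again, which the intervals do not include.

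The mature sequences are shown first because they decide which of these genes a read can be assigned to. All 5 genes were found in RefSeq on GRCm38.p6, where they carry 8 differently named mature sequences, and in each case the RefSeq hairpin was identical to the GENCODE M21 gene sequence. For the 3′ arm of Mir219a-2 RefSeq lists no mature strand, so any reads of that arm are counted at the gene without a named strand here. The mature strands that RefSeq lists for the miR-219a and miR-338 hairpins are, 5′ to 3′, with the seed in capitals:
miR-219a-5p: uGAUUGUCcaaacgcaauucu
miR-219a-1-3p: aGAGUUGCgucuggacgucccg
miR-338-3p: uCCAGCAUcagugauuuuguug
miR-338-5p: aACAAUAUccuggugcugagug

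The mature strand miR-219a-5p is listed for Mir219a-2 and for Mir219a-1 with the same 21 bases. No seed is shared between differently named mature strands of the 5 genes. None of the other mature strands among the 1679 named in RefSeq carried any of these seeds either.

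The miR-219a hairpins differ outside this arm. In the hairpins below, capitals mark the longest stretch that both hold, 22 bases, which is miR-219a-5p with the single base before it:
Mir219a-2 hairpin: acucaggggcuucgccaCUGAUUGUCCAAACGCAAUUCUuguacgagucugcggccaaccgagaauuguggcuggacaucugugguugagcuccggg
Mir219a-1 hairpin: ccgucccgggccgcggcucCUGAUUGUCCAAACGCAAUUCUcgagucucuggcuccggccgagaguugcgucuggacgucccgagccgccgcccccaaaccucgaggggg

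Over their whole length the hairpins were 63.2% identical. After the shared stretch Mir219a-2 continues with U and Mir219a-1 with C. Of the 76 positions where a read of 22 bases can lie in Mir219a-2, 1 also occurred in Mir219a-1, and of the 75 positions for a read of 23 bases none did. A read of miR-219a-5p with exactly its 21 listed bases therefore had at least 2 places to map, as have the reads in the entry for several places. A read of this arm that includes the next base of its hairpin at the 3′ end, or a read of the other arm, could be told apart. This compares hairpin sequence only, and reads ending in a base that is not in the hairpin were not considered. The tables count reads per gene and do not separate the arms, so the counts of both miR-219a genes are uncertain as levels of miR-219a-5p.

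Mir338 held no stretch of 22 bases in common with any other measured miRNA gene. Its hairpin is shown with both mature arms, miR-338-5p and then miR-338-3p, in capitals:
Mir338 hairpin: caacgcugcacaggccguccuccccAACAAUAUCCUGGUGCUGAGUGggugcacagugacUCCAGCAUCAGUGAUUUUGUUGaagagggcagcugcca

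Its longest stretch in common with either miR-219a hairpin was 6 bases. The miR-338 gene thus has no stretch of read length in common with the miR-219a genes.

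By position on mm10 with GENCODE M21, Mir338 (ENSMUSG00000065600.1) lies on chromosome 11 at 120014765 to 120014862, minus strand, inside an intron of Aatk, which encodes an apoptosis-associated tyrosine kinase. In the Aatk transcript with the most exons, 14, it is intron 7. Mir219a-2 (ENSMUSG00000065485.1) lies on chromosome 2 at 29845631 to 29845727, minus strand. No gene encloses Mir219a-2 on its strand, and the nearest protein-coding gene, Urm1, ends 628 bases away on the other strand. Mir219a-1 (ENSMUSG00000065555.1) lies on chromosome 17 at 34024983 to 34025092, minus strand, 302 bases upstream of Ring1, a Polycomb gene, and it overlaps an exon of the lincRNA Gm26940 by 88 bases. Mir219b (ENSMUSG00000105010.1) lies on chromosome 2 at 29845647 to 29845711 and Mir219c (ENSMUSG00000105964.1) on chromosome 17 at 34025012 to 34025071, both on the plus strand. Mir338, Mir219a-2 and Mir219a-1 thus each have a second miRNA gene opposite them, which is Mir3065 for Mir338, Mir219b for Mir219a-2 and Mir219c for Mir219a-1. No other miRNA gene lay within 10000 bases of any of the 5.

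Each of these opposite genes lies wholly within its partner and is its reverse complement over its whole length, 65 bases for Mir219b, 60 for Mir219c and 87 for Mir3065. The mature strands opposite the known ones are shown with capitals where they pair without a break with miR-219a-5p or, for miR-3065-5p, with miR-338-3p:
miR-219b-3p: AGAAUUGCGUUUGGACAAUCAgu
miR-219c-3p: cgAGAAUUGCGUUUGGACAAUC
miR-3065-5p: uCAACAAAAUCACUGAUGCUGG

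These stretches are 21, 20 and 21 bases long. A read from the overlap, on either strand, can be placed at 1 gene only if its strand is used.

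**Figure D1:**
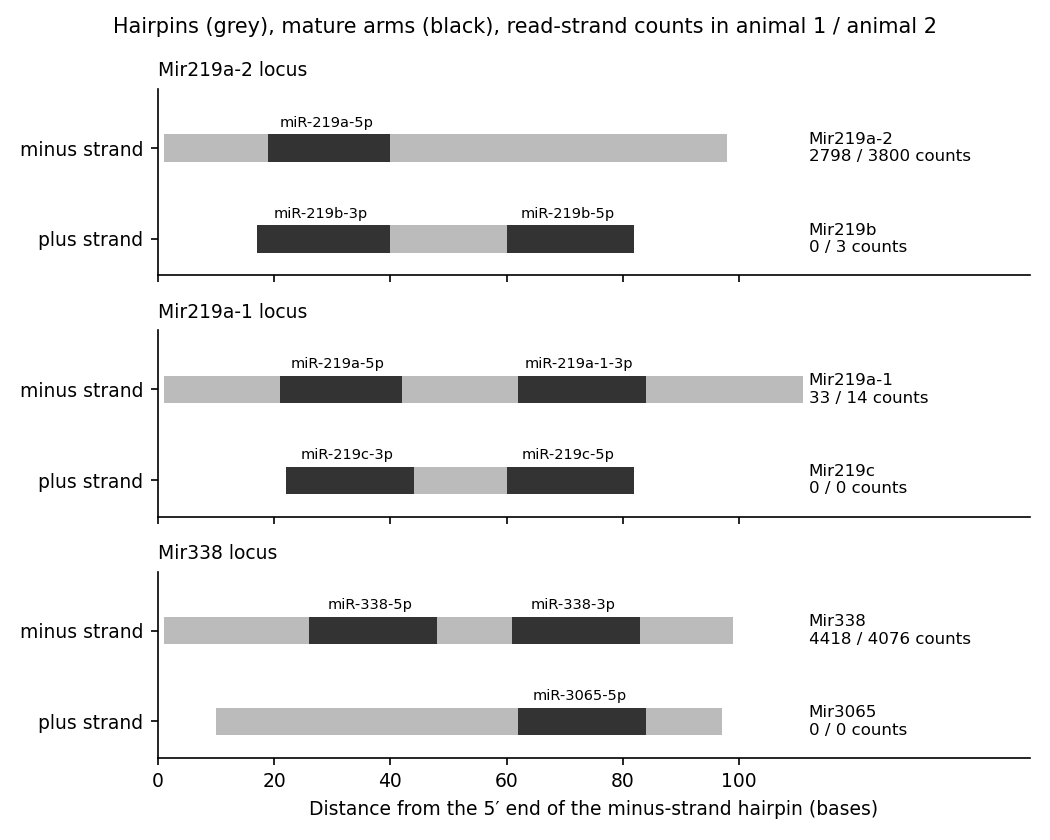
Map of the 3 loci, with distance in bases from the 5′ end of the minus-strand hairpin on the x axis and the strands as rows; grey bars are annotated hairpins, black bars the mature arms listed in RefSeq, and the numbers give read-strand counts in animal 1 and animal 2. At each locus the plus-strand hairpin lies inside the minus-strand one, and the counts are on the minus strand, with at most 3 counts on the plus strand in either animal.

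Of the 5 genes, 3 were detected, meaning 2 CPM or more in both animals, against 18.8% of all 2202 genes. The main members were Mir338 and Mir219a-2, which held 99.5% of the 5 genes' counts in animal 1 and 99.8% in animal 2. The summed share of the 5 genes was 0.164% of counts in animal 1 (interval 0.160 to 0.168%). In animal 2 it was 0.346% (0.339 to 0.354%), and the mean was 0.255% ± 0.129 (SD, n = 2). This share was 2.11-fold higher in animal 2.

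Mir338 had 4418 counts in animal 1 and 4076 in animal 2, from the shallower library. The level was 1000.5 CPM (interval 971 to 1030.4) and 1788 CPM (1734 to 1844), or 1394 ± 557 CPM (SD, n = 2). It ranked 93rd of the 2202 genes in animal 1 and 74th in animal 2.

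Mir219a-2 had 2798 counts in animal 1 and 3800 in animal 2. Its level was 634 CPM (610.4 to 658) and 1667 CPM (1614 to 1721), or 1150.3 ± 731 CPM (SD, n = 2). It ranked 113th and 80th. In this gene the deeper library, animal 1, gave the lower count as well as the lower level.

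Mir219a-1, the other source of miR-219a-5p, had 33 and 14 counts. Its level was 7.47 CPM (5.14 to 10.5) and 6.14 CPM (3.36 to 10.3), or 6.81 ± 0.942 CPM (SD, n = 2), and the intervals of the animals overlap. The counts of Mir219a-2 were 84.8 times those of Mir219a-1 in animal 1 (interval 60.2 to 123) and 271 times in animal 2 (162 to 497). The miR-219a reads that could be placed were therefore almost all placed at the chromosome 2 gene, and Mir219a-1 held 1.17% of them in animal 1 (0.804 to 1.63%) and 0.367% in animal 2 (0.201 to 0.615%). The entry for reads at several places was not added to these shares.

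Mir219b had 0 counts in animal 1 and 3 in animal 2. Mir219c had 0 in both animals, as did 66.1% of all measured genes. The 3 counts of Mir219b are 1.32 CPM (interval 0.271 to 3.85), so it was seen in animal 2 at a level under the minimum of 2 CPM. Neither gene reached that minimum in either animal, and neither was called detected.

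The order of the levels was Mir338, Mir219a-2, Mir219a-1, Mir219b and Mir219c in both animals, with Mir219b and Mir219c tied at 0 in animal 1. Across the animals the means of Mir338 and Mir219a-2 differed by less than the SD of either. The gap from Mir219a-2 to Mir219a-1 was larger than the spread between the animals, since the lower Mir219a-2 level, 634 CPM, stood against a higher Mir219a-1 level of 7.47 CPM. Within each library Mir338 exceeded Mir219a-2, with a ratio of 1.58 in animal 1 (interval 1.51 to 1.66) and 1.07 in animal 2 (1.03 to 1.12). These intervals do not overlap, so the ratio of the placed counts of the main members differed between the libraries beyond counting error. Reads of miR-219a-5p that fit both miR-219a hairpins may be missing from Mir219a-2, while Mir338 shares no 22-base stretch with another measured gene. The order and the ratio therefore hold for placed counts, and how far such reads bear on them was not tested.

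**Figure D2:**
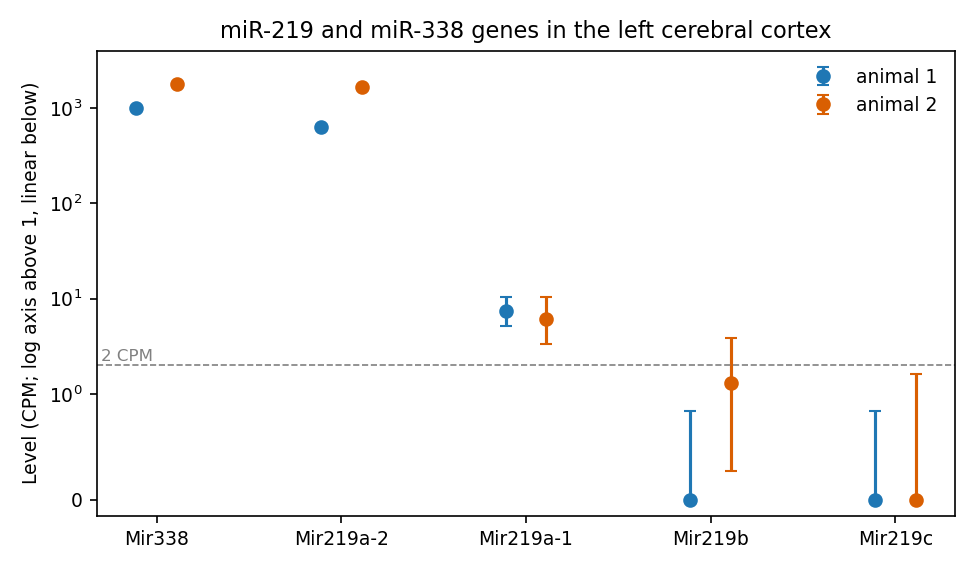
Level of each miR-219 and miR-338 gene in CPM (y axis, logarithmic above 1 and linear below) in animal 1 (blue) and animal 2 (orange), with exact Clopper-Pearson 95% intervals as bars, smaller than the points for Mir338 and Mir219a-2. Mir338 and Mir219a-2 lie between 634 and 1788 CPM, with animal 2 above animal 1, Mir219a-1 lies near 7 CPM in both animals, and Mir219b and Mir219c lie below the dashed line at 2 CPM.

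Between the animals, Mir219a-2 and Mir338 were higher in animal 2 and Mir219a-1 was not separated. Mir219a-2 was 2.63-fold higher in animal 2, a log2 difference of 1.39 on the CPM + 1 scale (counting interval 1.32 to 1.47). Mir338 was 1.79-fold higher, a log2 difference of 0.84 (0.78 to 0.90). Mir219a-1 had a log2 difference of -0.25 (-1.30 to 0.66), which includes 0.

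A difference was called outside counting error when the exact interval of animal 1's share of a gene's counts left out the share that the library totals give. By this rule 2 of the 3 detected members, Mir219a-2 and Mir338, were higher in animal 2, against 29.6% of the 415 detected genes (56.6% in either direction). The rule follows depth: among the 100 genes averaging at least 1000 CPM, where both of these members lie, 90.0% were outside counting error in either direction and 47.0% were outside it and higher in animal 2. With TMM scaling the same 2 members were called, against 28.0% of detected genes. Being outside counting error was thus common at this level and was not particular to the miR-219 and miR-338 genes. No p-value was computed, since each animal gave 1 library.

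The sizes can be read against the other genes. Over the 415 detected genes the log2 difference had a median of 0.0029 and an SD of 0.71, and 13 of the 415 lay higher than Mir219a-2 and 44 higher than Mir338. Among the 100 genes of at least 1000 CPM the median absolute difference was 0.24. In that set 6 genes lay higher than Mir219a-2 and 14 higher than Mir338. The difference at Mir219a-2 was 1.96 times the SD over detected genes, and that at Mir338 was 1.18 times it.

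**Figure D3:**
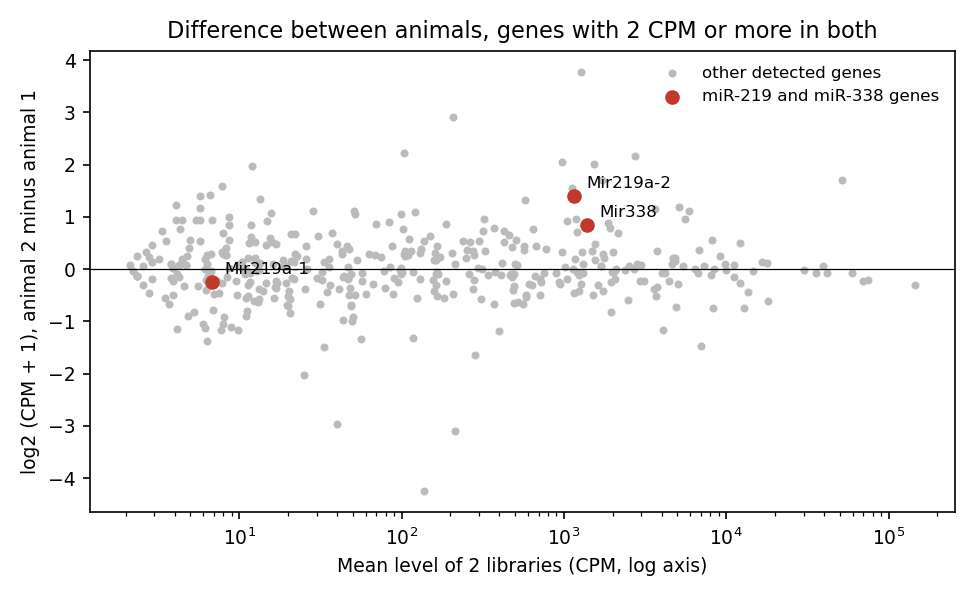
Difference between animals in log2(CPM + 1), animal 2 minus animal 1 (y axis), against the mean level of the 2 libraries (x axis, CPM on a log axis) for the 415 genes with 2 CPM or more in both; the miR-219 and miR-338 genes are red and the others grey. Mir219a-2 at 1.39 and Mir338 at 0.84 lie on the upper side of the cloud near 1000 CPM, and Mir219a-1 at -0.25 lies within it.

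Markers of other cell types also differed between the animals. The astrocyte list, miR-29 genes and Mir21a, had 5 of 5 members detected. Its sum was 9232 CPM in animal 1, against a 1.33-fold higher 12274 CPM in animal 2. Mir29a made up most of that sum, at 8412 and 10012 CPM, while Mir21a had 376 and 1562 CPM. Mir29b-1 shares 22 or more bases with Mir29b-2 and with Mir29c, so the counts of these genes are uncertain. The vascular list, Mir126a, Mir143 and Mir145a, had 3 of 3 detected and was 1.32-fold higher, from 11469 to 15155 CPM. The microglia and leukocyte list had 5 of 6 detected and was 1.31-fold higher, from 1795 to 2343 CPM. In that list Mir150, Mir146 and Mir223 were higher in animal 2 beyond counting error, while Mir142 at 31.7 and 35.1 CPM and Mir155 at 34.9 and 29.8 CPM were inside it.

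The neuron list had 9 of 12 detected, and its sum rested on Mir132, a miRNA that activity induces in neurons. The sum was 56566 CPM in animal 1 against 103801 CPM in the other animal, but without Mir132, which had 24389 and 79576 CPM, it was 32177 against 24225 CPM, lower in animal 2. Of its detected members 4 were outside counting error and higher in animal 2 (29.6% of all detected genes) and 4 were outside it and higher in animal 1 (27.0% of all), with a median log2 difference of -0.10. The 3 Mir124a genes had at most 11 counts in either animal, but they share 22 or more bases with each other, so these counts do not show how much miR-124 the tissue held.

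Of the erythroid list, Mir451a and Mir144 were outside counting error and higher in animal 1, at 385 against 43.9 CPM for Mir451a and 40.8 against 9.21 CPM for Mir144. Mir486 had 33.5 and 38.2 CPM, inside it. The list's sum, 459 against 91.2 CPM, was mostly Mir451a. Among miRNAs of other tissues, the striated muscle list summed to 24.0 and 17.1 CPM and the liver miRNA Mir122 had 60.9 and 36.8 CPM. The 4 muscle genes at 0 in both animals share 22 or more bases with a paralog, so their zeros do not show that muscle miRNAs were low. The part of these cell types, and of the unequal unmapped share, in the higher Mir338 and Mir219a-2 of animal 2 was not tested.

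Other miRNAs with reported roles in the oligodendrocyte lineage did not share this difference as a list. Of 19 such genes 16 were detected, 7 were higher in animal 2 beyond counting error (29.6% of all detected genes), 5 were higher in animal 1 (27.0% of all) and 4 were inside it. Their median log2 difference was -0.02, against 0.0029 over all 415 detected genes. Their summed level was 21953 CPM in animal 1, against 18698 CPM in the other animal. The lower sum in animal 2 rested on Mir23a, since the other 18 genes summed to 11474 CPM in animal 1 against 12491 CPM. Relative to the whole list, a denominator chosen after the data were seen, the log2 difference was 1.63 for Mir219a-2 and 1.07 for Mir338. Relative to the list without Mir23a it was 1.27 and 0.72. The lists overlap, since Mir138-1, Mir138-2 and Mir212 are also in the neuron list and Mir146 in the microglia and leukocyte list. They are therefore not separate evidence. The lineage list also mixes miRNAs of maturing cells, miRNAs tied to precursors and Mir212, which restrains maturation. Its median and sum therefore cannot show whether the lineage as a whole differed between the animals. Of its 19 genes, 9 share 22 or more bases with another measured gene, so their counts are uncertain.

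Among miRNAs that act in maturing cells, Mir23a, which in mouse oligodendrocytes represses lamin B1, was the most abundant of the list, at 10479 CPM in animal 1 against 6206 CPM in animal 2. Mir23a was thus lower in the animal with more Mir338 and Mir219a-2, while Mir27a of the same list was higher there, at 89.0 and 133 CPM. The paralogs Mir138-1 and Mir138-2, whose mature strand acts at early stages of differentiation and also in neurons, had 4329 and 5025 CPM and 3350 and 2860.2 CPM. They share at least 22 bases with each other, so the split between them is uncertain. Mir32 had 12.9 and 14.0 CPM, inside counting error.

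Of the miRNAs tied to precursors, the 6 genes of the miR-17 cluster fell on either side. Mir17 had 289 and 368 CPM, higher in animal 2, and Mir92-1 had 686 and 476 CPM, higher in animal 1. Mir20a at 96.0 and 84.7 CPM and Mir18 at 16.3 and 11.8 CPM were inside counting error. Mir19a had 0 counts in both animals and Mir19b-1 had 0 and 1. The counts of Mir92-1 and Mir19b-1 are uncertain, because each shares 22 or more bases with a second copy, Mir92-2 and Mir19b-2.

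The miR-7 genes, active in precursors and in neurons, were led by Mir7b at 1089 and 1247 CPM. Its paralogs Mir7-1 and Mir7-2 had 33.3 and 46.5 CPM and 103.9 and 86.9 CPM. Of the miR-9 genes, which are expressed in neural progenitors, Mir9-3 had 45.7 and 41.2 CPM, Mir9-1 had 14.0 and 5.70 CPM, and Mir9-2 had 10 and 4 counts. The miR-9 genes share 22 or more bases with each other, as do Mir7-1 and Mir7-2, and their counts are uncertain for the same reason as those of miR-219a.

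Closest to the main members within the list was Mir212, which restrains oligodendrocyte maturation and is induced by activity in neurons, at 909 and 1488 CPM. Mir146, which acts in immune signalling, had 407 and 601 CPM, and Mir27a had 89.0 and 133 CPM. All 3 were higher in animal 2 beyond counting error, as were 29.6% of all detected genes. They belong to a list with 7 genes called higher in animal 2 and 5 called higher in animal 1.

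**Figure D4:**
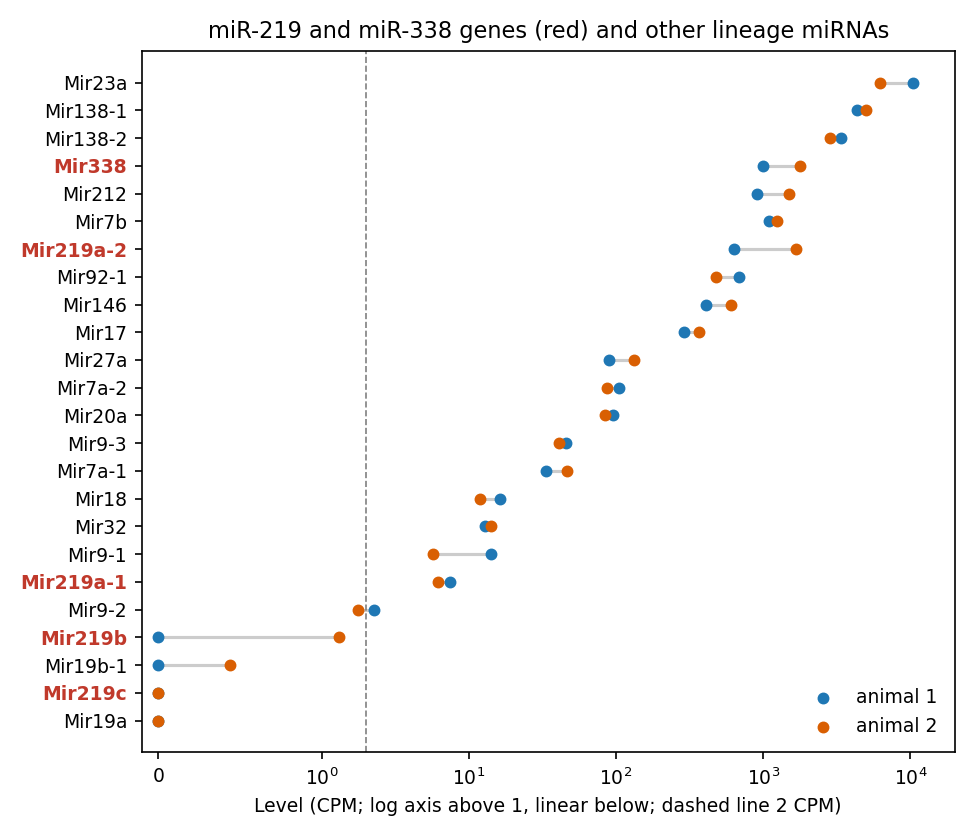
Level in CPM (x axis, logarithmic above 1 and linear below, dashed line at 2 CPM) in animal 1 (blue) and animal 2 (orange) of the miR-219 and miR-338 genes, in red, and of 19 other miRNAs with reported roles in the oligodendrocyte lineage, joined by grey lines. Mir338 and Mir219a-2 lie below Mir23a, Mir138-1 and Mir138-2, and the grey lines run in both directions across the list.

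Over all measured genes, those most like Mir338 in level, by Euclidean distance of log2(CPM + 1) over the 2 libraries, were Mir212 at a distance of 0.30, Mir154 at 0.36, Mir434 at 0.37, Mir27b at 0.37 and Mir150 at 0.41. Mir219a-2 was nearest to Mir455 at 0.16, which had 568 and 1671 CPM. Mir140 at 0.34, Mir27b at 0.35, Mir212 at 0.55 and Mir298 at 0.56 followed. Mir338 and Mir219a-2 lay 0.67 apart, so that Mir338 was the 6th nearest gene to Mir219a-2, and Mir219a-2 the 16th nearest to Mir338. With 2 libraries this distance mainly measures a shared level.

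Strand decided whether these genes could be seen at all. In the column that counts reads without regard to strand, Mir338 and Mir219a-2 had 0 counts in both animals. Mir219a-1 had 0 and 2 there, against 33 and 14 on the read strand. Of the 7249 read-strand counts of the 5 genes in animal 1, 7249 were missing from the unstranded column, and of the 7893 in animal 2, 7891 were missing. These numbers correspond to 2.59% and 5.27% of all reads that the unstranded column lists as ambiguous.

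The opposite-strand column held the same reads under the partner's name. Mir219b had 2798 and 3800 counts there, exactly the read-strand counts of Mir219a-2. Mir3065 had 4418 and 4076, exactly those of Mir338. Mir219c had 33 and 12, against 33 and 14 at Mir219a-1, so 2 reads of Mir219a-1 in animal 2 lay outside the part covered by Mir219c.

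On its own strand Mir3065 had 0 of 4418 counts in animal 1 and 0 of 4076 in animal 2. Taking the 3 counts that a count of 0 allows, its share was up to 0.0679% and 0.0736%. Exact intervals reach higher than these limits for 0 counts, here to 0.0835% and 0.0905%. Mir219b held 0 of 2798 counts, allowing up to 0.107%, and 3 of 3803, or 0.0789% (interval 0.0163 to 0.230%). For Mir219c the depth was low, and 0 of 33 and 0 of 14 counts allow shares of up to 9.09% and 21.4%. The exact intervals of Mir219c reach 10.6% and 23.2%. The Mir338 and Mir219a-2 loci were in this respect like other loci: among the 16 pairs of overlapping opposite-strand miRNA genes with 1000 or more counts, theirs included, the lesser strand had 0 counts in 11 and at most 0.170% of counts in the remainder.

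Predicted folding did not separate the detected from the undetected genes per base. RNAfold gave minimum free energies of -48.2 kcal/mol for Mir219a-2, -58.7 for Mir219a-1 and -41.9 for Mir338, against a median of -33.2 over the 2202 gene sequences. The undetected Mir219b and Mir219c had -18.8 and -26.8 kcal/mol, but they are also shorter, with 65 and 60 bases against 97, 110 and 98. Per base the values were -0.497, -0.534 and -0.428 kcal/mol for the detected genes and -0.289 and -0.447 for the undetected ones. Mir219c was thus lower in energy per base than the detected Mir338. The GC content of Mir219a-1, the scarce miR-219a gene, was 69.1%, and that of Mir219a-2 was 55.7%. These are predictions from sequence and describe 5 genes only.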

How the data were processed

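The authors deposited, per library, raw counts of reads per miRNA gene on mm10 with GENCODE M21, per the file headers of the accompanying metadata. The sources used here do not give the aligner, its version or the read filters. The columns carry no header, so the read-strand column was taken as the strand-assigned column with the larger sum, and the others served for strand overlap. The 4 summary entries were left out of totals; they held unmapped reads (23.4% and 47.1%), reads at several places, reads at no gene (6.52% and 4.91%) and ambiguous reads. All identifiers matched the annotation; Mir7a-1 and Mir7a-2 of the lists were matched as Mir7-1 and Mir7-2 through RefSeq synonyms.

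CPM, log2(CPM + 1) and exact Clopper-Pearson 95% intervals were computed with SciPy 1.17.1. The call of counting error was tested on simulated data, in which unchanged genes varied by counting error only. That test cannot show how the call behaves with PCR copies or with differences between library preparations. With a single group no contrast, p-value or differential test was possible. The replicate numbers are those of the labels. Alternatives used edgeR 4.0.16 (TMM), DESeq2 1.42.0 (size factors), other denominators, pseudocounts of 0.1 and 5 CPM, filters of 1 count and 10 CPM, the unstranded column, thinning of animal 1 to the total of animal 2, and leaving out each library. Sequences came from RefSeq on GRCm38.p6 and folding from RNAfold 2.7.2. Named genes were the 5 members, miRNA genes overlapping them or within 10000 bases, genes sharing a seed, the 5 nearest in level to each main member, and the lists. Members and lists were chosen with earlier results of these data known. The lists were other oligodendrocyte lineage, neuron, astrocyte, microglia and leukocyte, vascular, erythroid, striated muscle and liver.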

Additional observations from a re-analysis of the deposited data

Results flagged for a closer look

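Counts lay outside the column used for levels. The opposite-strand column held 2798 counts at Mir219b in animal 1 and 3800 in animal 2, and 33 and 12 at Mir219c, all above the 3 counts that a count of 0 allows. They equal the read-strand counts of Mir219a-2 and lie at or below those of Mir219a-1. Reads that mapped to several places, which were added to no gene here, were a large class, 48.9% of the mapped reads of animal 1 and 48.2% of those of animal 2. How many of them carry miR-219a-5p was not analysed here.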

How the results depend on the processing

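No paired analysis was possible because both libraries belong to a single group. The log2 differences of Mir219a-2 and Mir338 kept their direction under TMM, DESeq2 size factors, the other denominators, both pseudocounts and thinning. Under TMM, DESeq2 size factors, the other denominators and thinning they stayed outside counting error, and that of Mir219a-1 stayed inside it. The call uses no pseudocount, so the pseudocounts could not change it. Over all these settings the ranges for Mir219a-2, Mir338 and Mir219a-1 were 0.85 to 1.63, 0.30 to 1.07 and -0.53 to -0.05. The lowest values for Mir219a-2 and Mir338, 0.85 and 0.30, were those per 1000000 reads with unmapped reads included, chosen after the data were seen. With the unstranded column the mean level was 0 CPM for Mir338 and Mir219a-2 and 0.470 CPM for Mir219a-1, the number of members detected was 0 and their share 4.7e-05%; no ratio could be computed there, because opposite genes make these reads ambiguous. Per 1000000 mapped reads, a larger denominator, Mir338 had a mean of 593 and Mir219a-1 of 2.90, and the members' share was 0.109%. Without the most abundant gene, Mir139, in the total, Mir219a-1 had 7.99 CPM. Leaving out each library gave 1000.5 to 1788 CPM for Mir338, 634 to 1667 for Mir219a-2, 6.14 to 7.47 for Mir219a-1, 0 to 1.32 for Mir219b and 0 for Mir219c, shares of 0.164 to 0.346%, log2 ratios of Mir338 to Mir219a-2 of 0.10 to 0.66, and 3 members detected each time. A filter of 1 count in either library kept 4 members and 10 CPM in both kept 2. At 33 and 14 counts, the interval of Mir219a-1's log2 difference, -1.30 to 0.66, leaves out the 0.84 of Mir338 but cannot give a direction.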
